A study of Mus musculus with 12 samples.

Results

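The genes described here are 10 mouse genes that guard stalled DNA replication forks and signal their state to the cell cycle. They are Timeless, Tipin, Clspn (claspin), Atr, Atrip, Chek1, Smarcal1, Zranb3, Hltf and Donson. They were chosen by name for their function, with earlier results of these data known, and were found among the 56691 mouse gene IDs of each count table. All 10 had enough counts to be among the 13230 genes tested. The study grew R1 129 male mouse embryonic stem cells on gelatin in serum with LIF and called these day 0 cells primed. It then kept such cells for 6 days with 2i, which blocks the kinases MEK and GSK3 and brings mouse embryonic stem cells towards the naive ground state, alone or with an inhibitor of the nuclease MRE11. Every group had 3 libraries, which gave 12: primed cells with no treatment at day 0, 2i at day 6, "2i + 25uM MRE11i" at day 6 and "2i + 50uM MRE11i" at day 6. The labels name neither the inhibitor compound nor its solvent, R1 is a single cell line, and no day 6 library came from cells without 2i, so 2i and time cannot be told apart. The labels do not say that replicates were separate cultures, so the spread that the p-values rest on may be technical.

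A replication fork that stalls exposes single-stranded DNA, which is coated by the protein RPA and read by ATRIP, the partner that brings the kinase ATR to the fork. ATR then phosphorylates CHK1, and claspin bridges them, while TIMELESS and TIPIN form a complex that travels with the replicative helicase, keeps it coupled to the polymerases and supports the same signal. SMARCAL1, ZRANB3 and HLTF are DNA translocases that turn a stalled fork back on itself, pairing the new strands, DONSON is a replisome factor that works in helicase assembly and fork stability, and MRE11 is a nuclease that degrades reversed forks when they are not protected.

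RNA from whole cultures was read at the 3′ ends of polyadenylated transcripts, so a library's value for a gene is a number of 3′ tags and does not scale with transcript length. Libraries held 5894561 to 7060126 counts. Levels are given as CPM, counts scaled to a common library size with TMM factors. Changes are log2 fold changes ± standard error from 1 edgeR quasi-likelihood fit of the 12 libraries, and a gene is said to have risen or fallen where its p, adjusted by the Benjamini-Hochberg method over all 13230 genes, was below 0.05. In such bulk samples a smaller share of cells expressing a gene and less RNA per cell cannot be told apart. The 10 embryonic stem cell markers listed were present in every group, with summed levels of 4205 to 4909 CPM in primed libraries and 5268 to 5940 CPM in the day 6 libraries. Markers of fibroblasts and feeder cells summed to 156.2 to 292.9 CPM in primed and 189.2 to 231.3 CPM in day 6 libraries, most of it Vim, and Dcn, Lum, Postn and Col3a1 averaged under 1 CPM in each group. Col1a1, Col1a2 and Thy1 had their highest mean in primed and their lowest at 50 µM. Col1a1 averaged 25.5, 7.15, 1.78 and 0.762 CPM in primed, 2i, 25 µM and 50 µM libraries. In the same order Col1a2 averaged 11.4, 1.54, 0.622 and 0.609 CPM, and Thy1 7.85, 4.77, 2.34 and 0.275 CPM. Pdgfra (0.527, 1.19, 1.51 and 0.97 CPM), Pdgfrb (1.71, 1.53, 2.25 and 1.39 CPM) and Vim (159, 192.2, 184.9 and 216.3 CPM) did not follow that course. Of the 5 genes of the list that were tested, 3 fell with 2i, 1 fell at 25 µM and 2 fell at 50 µM against 2i, and none rose. Of all genes tested, 20.4%, 0.484% and 8.07% fell in these comparisons. Endoderm markers summed to at most 14.5 CPM and mesoderm markers to at most 16.4 CPM in any library. Trophoblast markers summed to 129.5 to 157.2 CPM in primed, 111.3 to 168.1 CPM in 2i, 109.8 to 144.1 CPM at 25 µM and 74.9 to 110.5 CPM at 50 µM. Most of it was Tfap2c, with means of 131.7, 130.3, 120.5 and 87.1 CPM. Neuroectoderm markers summed to 113.1 to 120.7, 75.7 to 97.4, 90.0 to 90.7 and 85.3 to 106.5 CPM in the same order. Most of that was Tubb3, with means of 91.9, 63.3, 65.95 and 69.5 CPM. Sox1 averaged 0.7301, 1.429, 3.722 and 4.094 CPM in the same order, and Pax6 2.707, 0.3572, 0.5661 and 0.6635 CPM. Of the 5 neuroectoderm genes tested, 3 fell and none rose with 2i. Against 2i, none of them was called at 25 µM, and 1 rose and none fell at 50 µM. Of the 3 trophoblast genes tested, 1 fell with 2i, none was called at 25 µM and 2 fell at 50 µM against 2i, and none rose. Whether cells of these other types were present, and their part in the results below, was not tested. In each group, replicate 1 differed from replicates 2 and 3 (chi-square per degree of freedom of the counts 9.38 to 12.7) by more than those differed from each other (2.58 to 6.98), so the fit was also run on replicates 2 and 3 of each group alone, a choice made after the data had been seen.

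The genes lie on 6 chromosomes of GRCm38, with 4 of them on chromosome 9. Timeless is at chr10:128232065-128252941 (plus strand, ENSMUSG00000039994), Tipin at chr9:64281581-64305424 (plus, ENSMUSG00000032397) and Clspn at chr4:126556935-126593903 (plus, ENSMUSG00000042489). Atr is at chr9:95857597-95951781 (plus, ENSMUSG00000032409), Atrip at chr9:109057933-109074124 (minus, ENSMUSG00000025646) and Chek1 at chr9:36708482-36727065 (minus, ENSMUSG00000032113). Smarcal1 is at chr1:72583251-72633134 (plus, ENSMUSG00000039354), Zranb3 at chr1:127954184-128103047 (minus, ENSMUSG00000036086), Hltf at chr3:20057811-20118490 (plus, ENSMUSG00000002428) and Donson at chr16:91676808-91688770 (minus, ENSMUSG00000022960). All 10 are protein-coding in the annotation.

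RefSeq (GRCm38.p6) gave a start-site window for 9 of the 10 genes, 11 windows in all, each 300 bases long (250 before and 50 after the start). Chek1 and Zranb3 are shown because their levels moved together over the 12 libraries (below), Donson because it had the widest change with 2i, and Clspn because it is the only member whose window held the E2F letters first searched. Each sequence is the 250 bases before a RefSeq start site, written 5′ to 3′ on the gene's strand. Capitals mark CCAAT (the letters bound by NF-Y) or TTGGCGG (an E2F-type site), on either strand.
Chek1, chr9:36726659-36726908, minus strand: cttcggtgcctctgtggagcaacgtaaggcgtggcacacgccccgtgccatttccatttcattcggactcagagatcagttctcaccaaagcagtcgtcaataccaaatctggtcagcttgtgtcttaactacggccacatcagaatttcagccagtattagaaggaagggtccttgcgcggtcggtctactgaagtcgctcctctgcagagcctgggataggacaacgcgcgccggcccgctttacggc
Zranb3, chr1:128103048-128103297, minus strand: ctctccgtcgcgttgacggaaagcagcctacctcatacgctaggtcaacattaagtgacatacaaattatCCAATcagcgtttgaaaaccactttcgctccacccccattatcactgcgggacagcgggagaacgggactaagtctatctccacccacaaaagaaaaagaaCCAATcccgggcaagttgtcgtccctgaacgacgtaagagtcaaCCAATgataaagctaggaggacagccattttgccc
Clspn, chr4:126556730-126556979, plus strand: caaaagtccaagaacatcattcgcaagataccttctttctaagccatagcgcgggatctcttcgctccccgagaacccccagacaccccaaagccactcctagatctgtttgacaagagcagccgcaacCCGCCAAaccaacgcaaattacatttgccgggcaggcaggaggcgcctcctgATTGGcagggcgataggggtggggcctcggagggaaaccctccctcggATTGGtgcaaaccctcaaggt
Donson, chr16:91688729-91688978, minus strand: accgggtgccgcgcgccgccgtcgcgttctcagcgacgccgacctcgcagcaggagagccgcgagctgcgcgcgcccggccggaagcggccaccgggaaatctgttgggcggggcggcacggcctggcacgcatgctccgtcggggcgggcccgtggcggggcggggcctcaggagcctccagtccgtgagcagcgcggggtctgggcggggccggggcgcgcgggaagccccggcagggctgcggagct
The Zranb3 sequence holds CCAAT 3 times, with first bases at −180, −79 and −35 from the start site, and the Clspn sequence holds it on the other strand at −69 and −21. CCAAT was found in 6 of the 11 windows, which belong to 5 of the 9 genes, and in 37.4% of all 32851 RefSeq windows of the same length. TTCGCGC or TTGGCGC on either strand was found in 3.89% of all windows and, among these genes, only in that of Clspn, at +22, beyond the stretch printed. TTGGCGG, whose search was added after the promoters had been seen, was found in 2.74% of all windows and in 1 window each of Clspn (−121), Chek1 (+41), Zranb3 (a second start site, +32) and Hltf (a second start site, −87). The Donson sequence held neither motif and was 79.6% G or C with 41 CpG pairs, against 49.2% and 14 in that of Zranb3. The Chek1 start site used by RefSeq lies 407 bases inside the gene as GENCODE draws it.

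The 10 genes did not share one direction. Between primed cells and 2i, 1 of 10 rose and 2 fell, while 40.4% of all genes tested were called (20% rose and 20.4% fell), and the members' share was no higher than that of all genes. With 25 µM inhibitor against 2i alone 1 of 10 rose and none fell, beside 0.937% of all genes (0.454% up and 0.484% down), and with 50 µM 3 of 10 rose and none fell, beside 15.1% (7.01% up and 8.07% down). The labels do not say that replicate numbers pair libraries, and the main fit does not pair them, but the day 6 libraries were also treated as paired. With the replicate as a block in the fit the genes called of all those tested went from 124 to 627 at 25 µM and from 1994 to 3240 at 50 µM. The members called were the same 1 and 3. On replicates 2 and 3 alone the members called were 2 with 2i, 1 at 25 µM and 1 at 50 µM against 2i. Between 50 µM and 25 µM none of the 10 was called, beside 1.16% of all genes. None of the 10 had an unadjusted p below 0.05 in edgeR there, and DESeq2 and limma voom also called 0. Against primed cells, 4 of 10 rose and 2 fell at 25 µM, beside 42.3% of all genes (21.3% up and 21% down). At 50 µM against primed 4 of 10 rose and none fell, beside 44.3% (22.6% up and 21.7% down). The median log2 fold change of the 10 was 0.10 for 2i against primed, 0.03 for 25 µM and 0.06 for 50 µM against 2i, where the medians of all genes were −0.01, 0.00 and 0.01. The comparisons with 2i share its 3 libraries, and those with primed share the primed libraries.

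**Figure D1:**
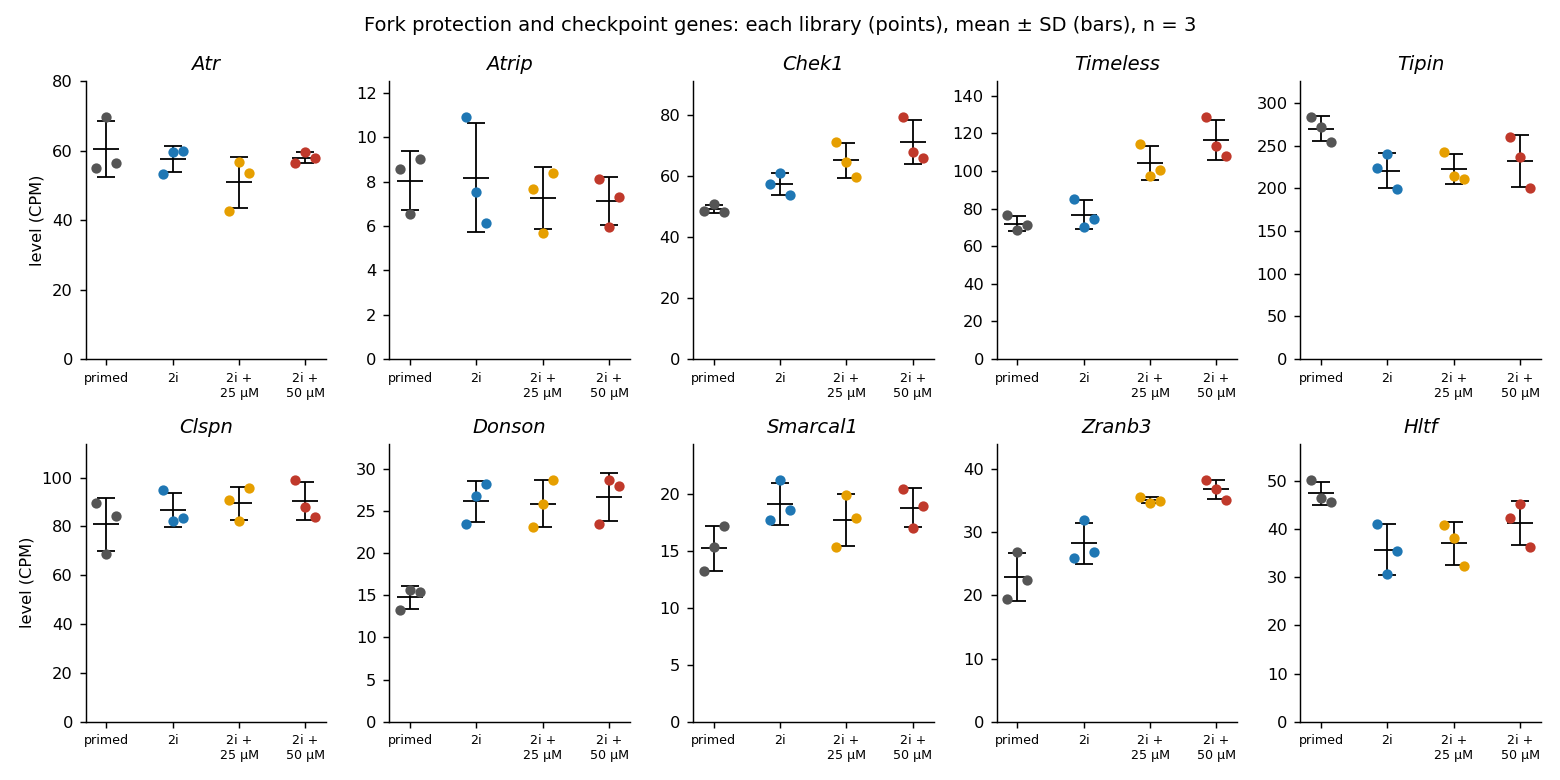
Level of each of the 10 genes in every library (CPM, y axis from 0) by group, with 1 point a library and the bar at the mean ± SD of 3 libraries. Timeless stands at 68.4 to 85.2 CPM in the primed and 2i libraries and at 97.5 to 128.5 CPM in the 6 libraries with inhibitor, while Donson steps up once, between primed and 2i.

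Timeless, the subunit that anchors the fork protection complex, rose with the inhibitor and not detectably with 2i alone. Its level was 76.3, 68.4 and 71.2 CPM in the primed libraries and 85.2, 70.4 and 74.5 CPM in 2i. With inhibitor it was 114.3, 97.5 and 100.4 CPM at 25 µM and 128.5, 113.5 and 107.7 CPM at 50 µM. All 6 inhibitor libraries lay above all 6 others, primed and 2i overlapped, and so did both doses. Against 2i the log2 fold change was 0.44 ± 0.10 at 25 µM (1.36-fold, edgeR adjusted p = 0.0401) and 0.60 ± 0.10 at 50 µM (1.52-fold, adjusted p = 0.000339), higher in 3 of 3 libraries each time. These changes ranked at percentiles 94.4 and 94.3 among all genes tested in their comparisons. The call at 50 µM held without any 1 of the 6 libraries (adjusted p 0.000305 to 0.00456). On replicates 2 and 3 alone both doses passed (0.44 ± 0.10, adjusted p = 0.0328, and 0.59 ± 0.10, adjusted p = 0.00028). With 1 library left out, the call at 25 µM held only without 2i replicate 1: leaving out 2i replicate 2 or 3, or any 1 of the 3 libraries at 25 µM, took the adjusted p above 0.05, to as much as 0.204. The step from 25 to 50 µM was 0.16 ± 0.10 (adjusted p = 0.56, 95% interval −0.04 to 0.37), and that from primed to 2i was 0.09 ± 0.10 (adjusted p = 0.51, interval −0.12 to 0.30).

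Tipin, the small partner of Timeless, took the other course: it fell with 2i and did not change detectably with the inhibitor. It stood at 283.2, 272.3 and 254.3 CPM in primed cells and at 223.6, 239.8 and 199.2 CPM in 2i, so that all 3 primed libraries were above all 3 of 2i. The log2 fold change was −0.29 ± 0.10 (0.82-fold, edgeR adjusted p = 0.0247). This call was lost without primed replicate 1 (adjusted p = 0.0746), primed replicate 2 (0.0581), 2i replicate 1 (0.0526) or 2i replicate 3 (0.134), and on replicates 2 and 3 alone (0.0578). With inhibitor the level was 242.6, 214.4 and 211.2 CPM at 25 µM and 259.7, 236.6 and 199.9 CPM at 50 µM, overlapping 2i. The difference from 2i was 0.01 ± 0.10 at 25 µM (interval −0.20 to 0.22) and 0.07 ± 0.10 at 50 µM (interval −0.14 to 0.28). Against primed cells Tipin fell at 25 µM (−0.28 ± 0.10, adjusted p = 0.0297), a call lost without primed replicate 1 or 2 or without replicate 2 or 3 at 25 µM (adjusted p up to 0.104). At 50 µM the difference from primed was −0.22 ± 0.10 (adjusted p = 0.0824), and it passed without replicate 1 at 50 µM (adjusted p = 0.0199) and on replicates 2 and 3 alone (0.0291). The upper bound for Tipin at 50 µM against 2i, 0.28, lies under the lower bound for Timeless, 0.39.

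The 2 proteins act as one complex, so their counts were also set against each other within each library, a measure chosen after the levels had been seen. There were 27.0, 25.1 and 28.0 Timeless counts per 100 Tipin counts in the primed libraries, 38.1, 29.4 and 37.4 in 2i, 47.1, 45.5 and 47.6 at 25 µM and 49.5, 48.0 and 53.9 at 50 µM. No group overlapped the next in this series. The mean log2 ratio was 0.38 higher in 2i than in primed cells, 0.43 higher at 25 µM than in 2i, 0.54 higher at 50 µM than in 2i and 0.11 higher at 50 than at 25 µM. Each of the 6 pairs of groups gave a two-sided exact permutation p of 0.1, which is the smallest that 3 libraries against 3 allow, and 0.1 after adjustment over the 6 pairs, so no pair could pass 0.05. The ratio uses counts of 1 library only and does not depend on the scaling between libraries.

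**Figure D2:**
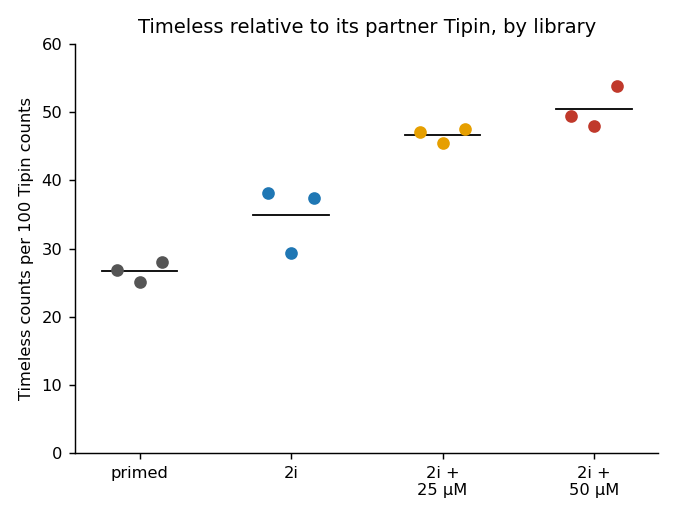
Timeless counts per 100 Tipin counts (y axis, from 0) in each of the 12 libraries by group, with a line at the mean of 3 libraries. The groups do not overlap: 25.1 to 28.0 in primed, 29.4 to 38.1 in 2i, 45.5 to 47.6 at 25 µM and 48.0 to 53.9 at 50 µM.

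Clspn, the adaptor through which ATR reaches CHK1, passed no test. Its level was 68.8 to 89.7 CPM in primed, 82.3 to 94.7 CPM in 2i, 82.2 to 95.7 CPM at 25 µM and 84.0 to 99.0 CPM at 50 µM, so every group overlapped every other. The log2 fold change at 50 µM against 2i was 0.06 ± 0.11 (interval −0.17 to 0.28) and that of 2i against primed was 0.10 ± 0.11 (interval −0.12 to 0.32).

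Among the checkpoint kinases, Chek1 rose and Atr did not. Chek1 encodes CHK1, the kinase that restrains CDC25 phosphatases and late origins. It stood at 48.5, 50.6 and 48.1 CPM in primed cells and at 57.4, 60.8 and 53.6 CPM in 2i. It was 70.9, 64.6 and 59.6 CPM at 25 µM and 79.1, 67.9 and 65.9 CPM at 50 µM. All primed libraries lay below all others, and all 50 µM libraries lay above all of 2i. The log2 fold change at 50 µM against 2i was 0.31 ± 0.10 (1.24-fold, edgeR adjusted p = 0.0442), and the call was lost without any 1 of the 6 libraries (adjusted p 0.0505 to 0.261) and with RLE scaling (0.0576), no low-count filter (0.086), DESeq2 (0.0761) or the 6 libraries alone (0.0678). On replicates 2 and 3 alone it was 0.20 ± 0.11 (adjusted p = 0.264). With the replicate block the call held, and limma voom also called 3 of the 10 members at 50 µM against 2i. Neither 2i against primed (0.22 ± 0.10, adjusted p = 0.0913) nor 25 µM against 2i (0.18 ± 0.10, adjusted p = 0.457) passed. Against primed cells Chek1 rose by 0.41 ± 0.10 at 25 µM (adjusted p = 0.00284) and by 0.53 ± 0.10 at 50 µM (1.45-fold, adjusted p = 0.000227), and both calls held without any 1 library.

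Atr, the apical kinase, was at 55.0 to 69.6 CPM in primed, 53.3 to 59.9 CPM in 2i, 42.7 to 56.6 CPM at 25 µM and 56.4 to 59.7 CPM at 50 µM. Its log2 fold change was −0.07 ± 0.11 for 2i against primed (adjusted p = 0.677), −0.18 ± 0.12 for 25 µM against 2i (adjusted p = 0.547) and 0.01 ± 0.11 for 50 µM against 2i (adjusted p = 0.968, interval −0.23 to 0.25). Atrip, which recruits ATR to RPA-coated DNA, was the lowest of the 10, with 35 to 71 counts a library and 5.69 to 10.9 CPM. Its interval at 50 µM against 2i ran from −0.69 to 0.27, so changes within those bounds remain possible at this depth. The last 500 bases of Atrip are also exon of Trex1 on the same strand, and Trex1 is listed at 0 in all 12 libraries, so how tags from the shared stretch were assigned, and with it the level of Atrip, is uncertain.

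The fork reversal enzymes went separate ways. Zranb3, a translocase and endonuclease recruited by ubiquitylated PCNA, was at 19.4, 26.9 and 22.4 CPM in primed cells and at 26.0, 32.0 and 26.8 CPM in 2i. With inhibitor it was 35.6, 34.7 and 34.9 CPM at 25 µM and 38.2, 36.8 and 35.1 CPM at 50 µM. All 6 inhibitor libraries lay above all 6 others, whereas primed and 2i overlapped. The difference between 2i and primed, 0.30 ± 0.13 (adjusted p = 0.0655), passed only without primed replicate 2 (0.0184) or 2i replicate 1 (0.0427) when 1 library was left out. The log2 fold change at 50 µM against 2i was 0.38 ± 0.12 (1.30-fold, edgeR adjusted p = 0.0432), a call that held only without 2i replicate 2 when 1 library was left out (adjusted p up to 0.179 without one of the other 5) and that was lost with RLE scaling (0.0542), no low-count filter (0.0683) or DESeq2 (0.0761). On replicates 2 and 3 alone it was 0.27 ± 0.14 (adjusted p = 0.221). The replicate block kept the call, and limma voom also called 3 of the 10 members at 50 µM against 2i. At 25 µM the difference from 2i was 0.31 ± 0.12 and did not pass (adjusted p = 0.277). Against primed cells Zranb3 rose by 0.62 ± 0.13 at 25 µM (adjusted p = 0.000445) and by 0.68 ± 0.13 at 50 µM (1.61-fold, adjusted p = 0.000154), without exception when 1 library was left out.

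Hltf, a translocase and ubiquitin ligase for PCNA, fell with 2i. It was at 50.2, 46.4 and 45.7 CPM in primed libraries and at 41.2, 30.6 and 35.5 CPM in 2i, with no overlap. The log2 fold change was −0.41 ± 0.12 (0.75-fold, edgeR adjusted p = 0.0116), and the call was lost without 2i replicate 2 (adjusted p = 0.0847), the lowest of the 6 libraries. It remained below primed at 25 µM, at 40.9, 38.1 and 32.2 CPM (−0.36 ± 0.12, adjusted p = 0.0246), though not without primed replicate 1 (adjusted p = 0.073) or replicate 3 at 25 µM (0.123). At 50 µM, with 42.3, 45.2 and 36.3 CPM, neither the difference from primed (−0.20 ± 0.12, adjusted p = 0.199) nor that from 2i (0.21 ± 0.13, adjusted p = 0.286) passed. Smarcal1, the translocase that binds RPA, was at 13.2 to 17.1 CPM in primed, 17.7 to 21.2 CPM in 2i, 15.4 to 19.9 CPM at 25 µM and 17.0 to 20.4 CPM at 50 µM. Primed and 2i did not overlap for Smarcal1, but the difference of 0.33 ± 0.15 did not pass (adjusted p = 0.0833), and its interval at 50 µM against 2i was −0.33 to 0.27.

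Donson rose with 2i and showed no detectable response to the inhibitor. Its level was 13.2, 15.6 and 15.4 CPM in primed cells and 23.5, 26.8 and 28.2 CPM in 2i. It was 23.1, 25.9 and 28.7 CPM at 25 µM and 23.4, 28.6 and 28.0 CPM at 50 µM. All 9 day 6 libraries lay above all 3 primed libraries, and the 3 day 6 groups overlapped one another. The log2 fold change of 2i against primed was 0.83 ± 0.14 (1.77-fold, edgeR adjusted p = 5.38e-05, interval 0.54 to 1.12), the largest in size of the 10 in that comparison, and it was called without any 1 of the 6 libraries (adjusted p 4.6e-05 to 0.000583) and on replicates 2 and 3 alone. At 50 µM against 2i the change was 0.03 ± 0.13 (interval −0.24 to 0.30). Exons of Donson share 103 bases with Son on the opposite strand, at 2286 to 3308 counts a library, outside the last 500 bases of Donson. The difference of Son between 2i and primed was 0.18 ± 0.08 (edgeR adjusted p = 0.0913). They also share 287 bases with Atp5o on the same strand, again outside the last 500 bases of Donson. Atp5o is listed at 0 in all 12 libraries, so how tags from that stretch were assigned is uncertain.

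**Figure D3:**
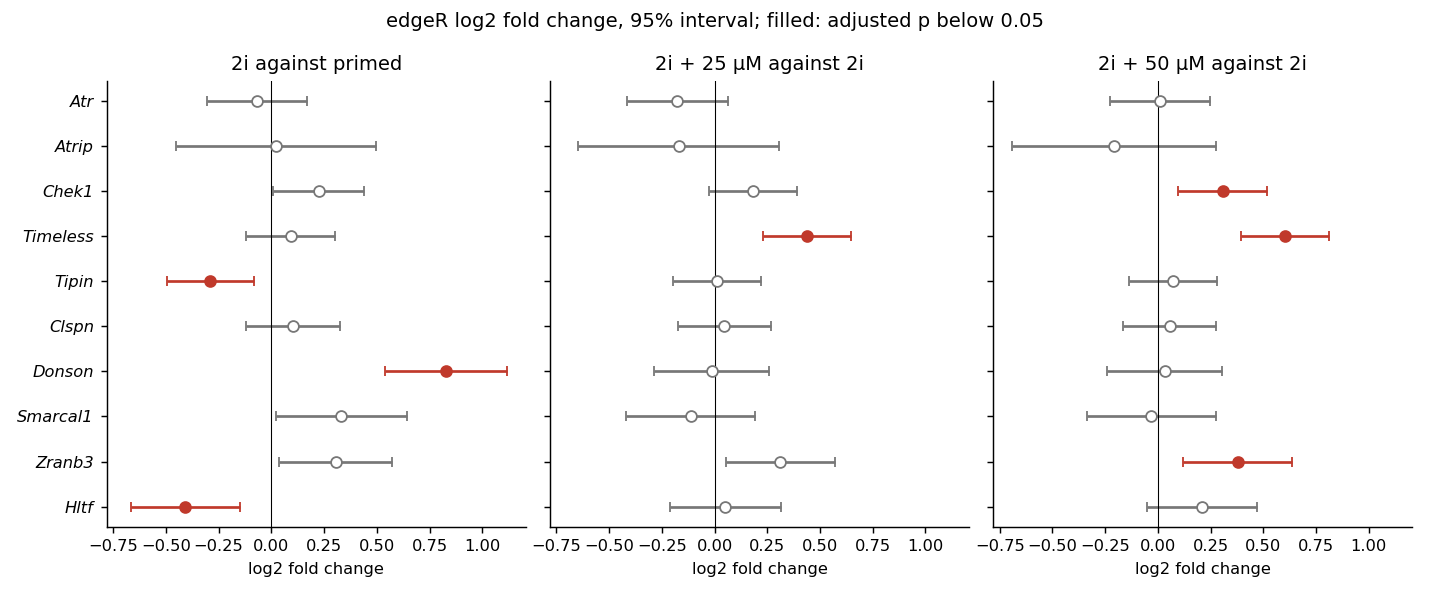
Log2 fold change of each of the 10 genes in 3 comparisons (x axis) with its 95% interval from edgeR, filled where the adjusted p was below 0.05. Donson, Hltf and Tipin are filled for 2i against primed, Timeless alone for 25 µM against 2i, and Timeless, Zranb3 and Chek1 for 50 µM against 2i.

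Over the 12 libraries the levels of some of these genes followed one another. Pearson's r of log2 CPM was 0.91 between Chek1 and Zranb3, 0.89 between Timeless and Chek1 and 0.78 between Timeless and Zranb3. Tipin ran with Hltf (r = 0.71) and against Donson (r = −0.81), and its r with Timeless was −0.22. These values describe 12 libraries that share 4 conditions and a common scaling, and no p is attached. Among 8443 genes searched for likeness to the 2 members that changed most between primed and 2i, the nearest to Donson were Sorl1 (r = 0.99), Piga (0.98), Magt1 (0.98) and Prss35 (0.98), and the nearest to Hltf were Tfe3 (0.93), Jmjd1c (0.91), Rps6kb1 (0.91) and Atic (0.90).

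Genes that mark S phase were called at 50 µM against 2i, where Timeless, Chek1 and Zranb3 rose, and also in comparisons where some or all of these 3 did not pass. Of 20 listed S phase genes, 6 rose and 1 fell with 2i (beside 40.4% of all genes called), 4 rose at 25 µM against 2i (0.937%) and 8 rose at 50 µM (15.1%), with median log2 fold changes of 0.17, 0.21 and 0.26. With the replicate as a block, 8 rose at 25 µM, where 627 of all 13230 genes were called, and 15 rose and 1 fell at 50 µM, where 3240 were. At 25 µM the 4 became 0 to 2 without 1 library, with 0 when 2i replicate 3 was left out. At 50 µM the 8 became 5 without 2i replicate 3 or without replicate 1 at 50 µM, and on replicates 2 and 3 alone 1 rose at 25 µM and 6 at 50 µM. Their summed level was 3174 to 3269 CPM in primed libraries, 3454 to 3642 CPM in 2i, 4063 to 4472 CPM at 25 µM and 4169 to 4719 CPM at 50 µM. Of 20 listed G2/M genes 4 fell with 2i, none was called at 25 µM and 1 fell at 50 µM. Per 1000 CPM of the S phase sum, Timeless was at 21.2 to 24.0 in primed, 19.6 to 23.4 in 2i, 24.0 to 25.6 at 25 µM and 24.9 to 27.2 at 50 µM. On the same scale Chek1 was at 14.7 to 15.7 in primed, 15.5 to 16.9 in 2i, 14.7 to 15.9 at 25 µM and 15.3 to 16.8 at 50 µM. Zranb3 was at 6.12 to 8.32, 7.13 to 8.89, 7.96 to 8.59 and 8.10 to 8.84 in the same order. Donson was at 4.16 to 4.84 in primed, 6.45 to 8.17 in 2i, 5.16 to 7.06 at 25 µM and 4.97 to 6.87 at 50 µM. These ratios are given as a description. The part of cell cycle distribution in the members' changes was not tested.

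The other genes of the pathway were read from lists of 65 partners, 64 of which were tested. With 2i against primed 8 of the 64 rose and 8 fell, beside 40.4% of all genes called, so the partners' share was no higher than that of all genes. At 25 µM against 2i 1 rose, beside 0.937%, and at 50 µM against 2i 9 rose and 3 fell, beside 15.1%, again a share near that of all genes. The counts in the lists below are to be read against these percentages. The partners' log2 fold changes had medians of 0.06, 0.06 and 0.11. With the replicate block the partners called at 50 µM were 15 up and 4 down, and 2 up and 1 down at 25 µM, beside 3240 and 627 of all 13230 genes. On replicates 2 and 3 alone they were 4 up and 3 down at 50 µM and none at 25 µM. Without 1 library the partners called at 50 µM numbered 5 to 9 in place of 12, the fewest without replicate 1 at 50 µM (5), without 2i replicate 1 (6) or without 2i replicate 3 (7).

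Of the 11 genes that form or load the 9-1-1 clamp or activate ATR, 3 fell with 2i (40.4% of all genes were called) and 3 rose at 50 µM (15.1%). Rfc4 and Rfc5, subunits of the clamp loader core, fell with 2i by 0.49 ± 0.12 and 0.39 ± 0.10 on the log2 scale (edgeR adjusted p = 0.00283 and 0.00421). Rfc3, of the same core, rose at 50 µM against 2i by 0.47 ± 0.10 (1.39-fold, adjusted p = 0.0021), and Rfc4 by 0.43 ± 0.12 (adjusted p = 0.0211). Rhno1, which binds the clamp and TOPBP1, fell with 2i (−0.35 ± 0.11, adjusted p = 0.011) and rose at 50 µM (0.44 ± 0.11, adjusted p = 0.00826). The calls of Rfc3 at 50 µM and of Rfc4 and Rfc5 with 2i held without any 1 library. The call of Rfc4 at 50 µM was lost in 3 of 6 cases with 1 library left out, and each call of Rhno1 in 2 of 6. Neither call of Rhno1 passed on replicates 2 and 3 alone. The 3 RPA subunits were not called with 2i, 25 µM or 50 µM: Rpa1 differed by 0.04 ± 0.08 at 50 µM against 2i and Rpa2 by 0.06 ± 0.11. Rpa3 was measured with a wider error, at 0.50 ± 0.44 with 2i (adjusted p = 0.407) and 0.48 ± 0.42 at 50 µM (adjusted p = 0.501), so a change in it was not determined.

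Downstream of CHK1, 3 of 9 effectors rose and 1 fell with 2i, and 1 rose at 50 µM. Cdk2, the S phase kinase, rose with 2i by 0.40 ± 0.10 (edgeR adjusted p = 0.00356) and Pkmyt1, which phosphorylates and restrains CDK1, by 0.48 ± 0.12 (adjusted p = 0.00292), both without any 1 library too. Of the CDC25 phosphatases that CHK1 restrains, Cdc25b fell with 2i (−0.51 ± 0.17, adjusted p = 0.0209) and Cdc25a rose (0.26 ± 0.10, adjusted p = 0.0358), calls that held in 3 of 6 and 1 of 6 cases with 1 library left out. Pkmyt1 rose again at 50 µM against 2i by 0.37 ± 0.12 (adjusted p = 0.0348), a call that held in 1 of 6 cases with 1 library left out and not on replicates 2 and 3 alone. Wee1, the nuclear counterpart of Pkmyt1, differed by 0.05 ± 0.09 and 0.16 ± 0.09 in these comparisons and was called in neither.

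Among 22 further fork protection and replisome genes tested, 1 rose with 2i, and 2 rose and 1 fell at 50 µM. Fancm, a fork-remodelling translocase of the Fanconi anaemia pathway, went from 33.0 CPM on average in primed cells to 71.1 CPM in 2i (1.11 ± 0.11, 2.15-fold, edgeR adjusted p = 6.81e-08). At 50 µM it was at 57.7 CPM, and the difference from 2i of −0.30 ± 0.11 did not pass (adjusted p = 0.0638) except with the replicate block (adjusted p = 0.012). At 50 µM Ube2n, the ubiquitin-conjugating enzyme that builds K63-linked chains on PCNA and chromatin, rose by 0.61 ± 0.15 (adjusted p = 0.00827), Primpol, which re-primes stalled forks, rose by 0.65 ± 0.19 (adjusted p = 0.0221), and Trp53bp1, which limits end resection, fell by 0.53 ± 0.11 (0.69-fold, adjusted p = 0.00287). The calls of Fancm and Trp53bp1 held without any 1 library, that of Ube2n was lost in 1 of 6 cases and that of Primpol in 3 of 6 and on replicates 2 and 3 alone.

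Of 12 fork nucleases and helicases, 2 rose and 3 fell with 2i, and 1 rose and 1 fell at 50 µM. Rbbp8, which encodes CtIP, the cofactor of MRE11 in end resection, rose with 2i by 0.71 ± 0.13 (1.63-fold, edgeR adjusted p = 0.000171) and the nuclease-helicase Dna2 by 0.63 ± 0.12 (1.55-fold, adjusted p = 0.000268). Mre11a, which encodes the target of the inhibitor, was at 61.2 CPM on average in primed cells and 46.7 CPM in 2i and fell by 0.39 ± 0.10 (adjusted p = 0.00431). It was at 50.6 CPM with 25 µM and 51.5 CPM with 50 µM, and neither difference from 2i passed (0.11 ± 0.10 and 0.14 ± 0.10, adjusted p = 0.706 and 0.4). Its partner Rad50 fell with 2i (−0.53 ± 0.09, adjusted p = 7.43e-05) and was lower again at 50 µM than in 2i (−0.37 ± 0.09, adjusted p = 0.00973). At 25 µM Rad50 differed from 2i by −0.36 ± 0.09 (adjusted p = 0.0693), which passed with the replicate block (adjusted p = 0.00112). Exo1, the exonuclease that extends resected ends, rose at 50 µM (0.29 ± 0.10, adjusted p = 0.0445), a call that held in 1 of 6 cases with 1 library left out. The calls of Rbbp8, Dna2 and Mre11a with 2i and of Rad50 with 2i and at 50 µM held without any 1 library.

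In the parallel ATM branch, which answers double-strand breaks, 2 of 7 genes rose and 1 fell with 2i, 1 rose at 25 µM, and 2 rose and 1 fell at 50 µM. H2afx, which encodes the histone variant that ATM and ATR phosphorylate, was at 216.7 CPM on average in primed cells, 211.0 CPM in 2i, 298.7 CPM at 25 µM and 363.8 CPM at 50 µM. Against 2i it rose by 0.50 ± 0.12 at 25 µM (edgeR adjusted p = 0.0444) and by 0.79 ± 0.12 at 50 µM (1.72-fold, adjusted p = 0.000152). The first call held in 1 of 6 cases with 1 library left out, and the second in 6 of 6. On replicates 2 and 3 alone the first did not pass. Rnf8, a ubiquitin ligase recruited to breaks, rose with 2i by 0.53 ± 0.10 (adjusted p = 0.000182, called in 6 of 6 cases with 1 library left out) and fell at 50 µM against 2i by 0.29 ± 0.10 (adjusted p = 0.0496, called in 1 of 6). Mdc1, the adaptor that binds phosphorylated H2AX, fell with 2i (−0.29 ± 0.09, adjusted p = 0.0146, called in 4 of 6), and Chek2, which encodes the kinase downstream of ATM, rose (0.28 ± 0.10, adjusted p = 0.0312, called in 3 of 6). Rnf168, the ubiquitin ligase that acts after RNF8, rose at 50 µM (0.30 ± 0.09, adjusted p = 0.0361, called in 1 of 6). Atm was not called with 2i (0.38 ± 0.21, adjusted p = 0.175) or at 50 µM (−0.24 ± 0.21, adjusted p = 0.494).

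**Figure D4:**
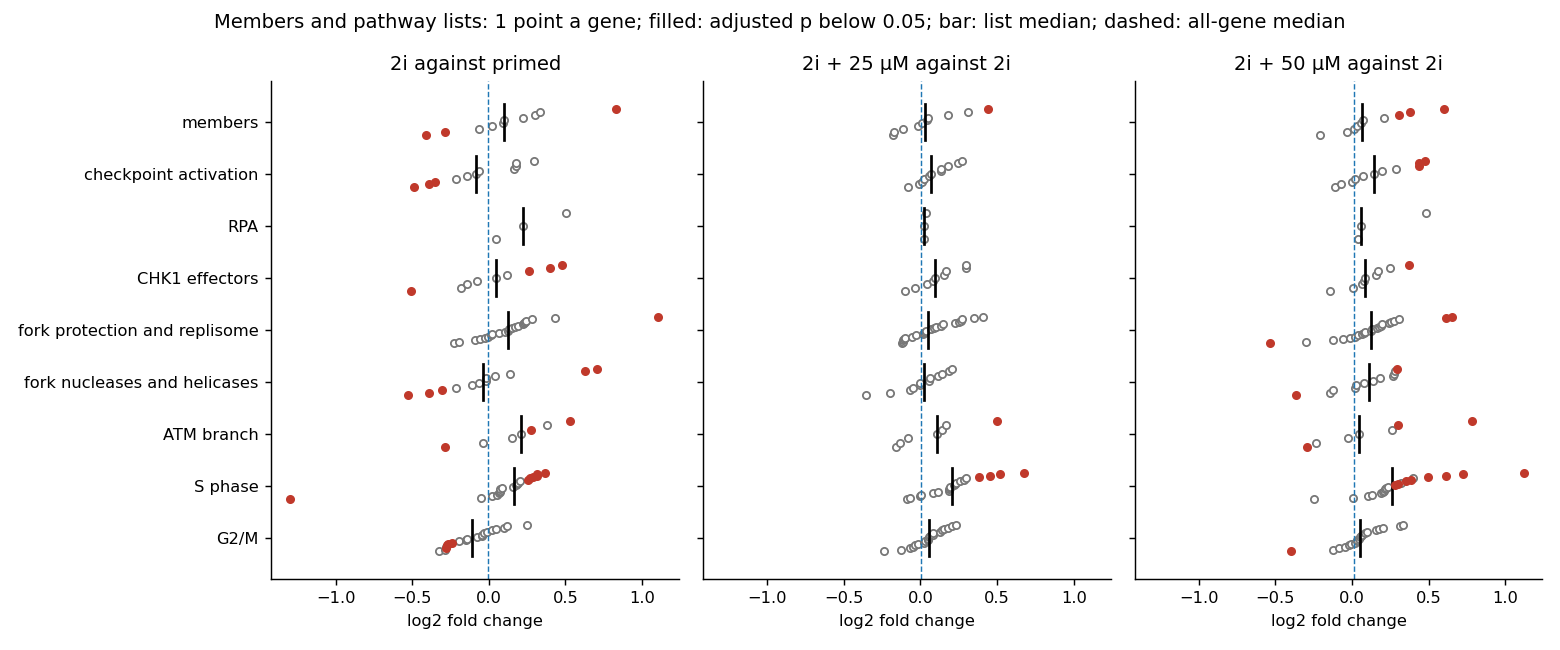
Log2 fold change of the 10 genes, of their pathway partners by list and of S phase and G2/M genes (x axis) in 3 comparisons, 1 point a gene, filled where the edgeR adjusted p was below 0.05, with the dashed line at the median of all genes. At 50 µM against 2i 3 of the 10 genes, 9 of 64 partners and 8 of 20 S phase genes rose, beside 7.01% of all genes tested. In that comparison 3 partners and 1 G2/M gene fell, beside 8.07% of all genes tested.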

How the data were processed

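QuantSeq 3′ libraries of oligo(dT)-primed RNA were sequenced by the authors, per the labels' protocols. The deposited tables hold raw counts per Ensembl gene ID. The submitters' processing notes name FastQC, STAR, DESeq2 1.32.0 and GRCm38 (mm10); neither the counting tool nor its strand setting is given there. Of 56805 features, 114 spike-ins (2 counts in all) were left out. Symbols and positions came from GENCODE on GRCm38 and start-site windows from RefSeq. A table of the whole series was not used.

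Genes passing filterByExpr (13230) were fitted in edgeR 4.0.16 (R 4.3.3) with TMM, all 12 libraries and group as the only term, and tested by robust quasi-likelihood. The standard error is the log2 fold change over the root of its F, and intervals are 95%. Total counts per library were 5894561 to 7060126. None of the 12 pairs of libraries of the same group agreed within sampling noise, so spread between libraries as well as depth limits the precision. Within the day 6 groups, libraries with the same replicate number deviated together for every number (r over genes 0.115 to 0.314, minimum 0.1). These numbers were taken as pairing in the block fits only, and errors and p-values not marked as from a block come from unpaired fits. With the primed libraries not every number met that limit. Libraries of unlike number were not examined in this way. Alternatives were RLE scaling, no filter, DESeq2 1.42.0, limma voom 3.58.1, the 6 libraries compared, the replicate block and leaving out each library, with a fit of replicates 2 and 3 alone added later. The test was also run on simulated counts drawn without a replicate effect, and the outcome of that run is not reported here. The 10 members, the partner lists and the markers were chosen with earlier results of these data known. All members were named. Of each partner list, up to 4 called genes of smallest p per comparison were named, with Mre11a. Any others named (RPA subunits, Wee1, Atm, Son, Trex1, Atp5o and single marker genes) were chosen after their values were seen. Protein features planned for the members were not run.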

Additional observations from a re-analysis of the deposited data

How the results depend on the processing

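No member's log2 fold change that was called reversed under any alternative. Of 810 values of the 10 members under alternatives, 764 kept their side of the threshold, 38 lost a call and 8 gained one. The number of members called for 2i against primed, 3, became 5 with the replicate block, where Chek1 (adjusted p = 0.0392) and Zranb3 (0.0335) were added, and was 2 to 3 without 1 library. For 25 µM against 2i the 1 member called became 0 when only the 6 libraries compared were fitted (Timeless, adjusted p = 0.0788) and was 0 to 1 without 1 library. For 50 µM against 2i the 3 members called became 1, Timeless, with RLE scaling, no low-count filter or DESeq2. The number was also 1, Timeless, on replicates 2 and 3 alone, and 1 to 2 without 1 library. It was 2 with only the 6 libraries compared, and stayed at 3 with limma voom and with the replicate block. Between the doses it stayed at 0. Against primed cells it was 4 to 6 at 25 µM and 4 to 5 at 50 µM without 1 library. The replicate block also added Atr at 25 µM (adjusted p = 0.0244) and Tipin at 50 µM (0.00686) against primed. It changed no other member's call. Over all genes, the count called for 25 µM against 2i, 124, was 627 with the block, 814 with the block on the 9 day 6 libraries (a fit added after the data were seen), 268 with no filter and 29 to 101 without 1 library. For 50 µM against 2i, 1994 became 3240 and 3463 with the 2 block fits and 1217 to 1668 without 1 library. For 50 against 25 µM, 153 became 542 and 740 with the block fits, 329 with no filter, 238 on replicates 2 and 3 alone and 38 to 203 without 1 library. The causes of these shifts were not tested. Depth limits Atrip most, and 3 libraries a group limit every call near the threshold.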
